A study of Schizosaccharomyces pombe with 31 samples.

Results

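Wild type fission yeast cells starved of nitrogen for 4 h were compared with wild type cells starved for 1 h. The comparison rests on 6 RNAseq libraries, 3 at each time, of the 27 in a nitrogen starvation time course and the 31 in the whole series. They were chosen by their labels alone: strain *h- 972*, genotype wild type, in minimal medium without nitrogen (MM-N). The time course also held wild type cells in minimal medium with ammonium chloride (MM, labelled as time 0), and cells of *h- igo1*∆ (*igo1::kanMX6*) and *h- ppk18*∆ *cek1*∆ (*ppk18::KanMX6 cek1::natMX6*) at each of the 3 times, with 3 libraries in each of its 9 groups. All cells were grown to mid-exponential phase, and those of the starved groups were spun down, washed in MM-N and kept in it, so that the 1 h and 4 h cells share the wash and the change of medium. Every strain was *h-*, so that mating partners of the opposite type were not part of the design. The replicates were labelled as biological and described by the study as independent. The p-values measure the spread between replicates, estimated jointly over all 9 groups (27 libraries) and not from the 6 libraries alone.

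When nitrogen runs out, TORC1, the kinase complex that couples growth to nutrients, loses activity, and fission yeast cells divide without growing, stop in G1 and become quiescent, or mate where a partner is at hand. The Greatwall kinases Ppk18 and Cek1 then phosphorylate Endosulfine (Igo1), which inhibits the protein phosphatase PP2A/B55. Ste11, an HMG-box transcription factor, switches on the genes for mating pheromones, their receptors and the pheromone signalling cascade, and *h-* cells (M cells) make M-factor and carry the receptor for P-factor. The wild type libraries at 1 h and 4 h ask what changes between the first response to the loss of nitrogen and the hours in which the last divisions take place.

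The unit throughout is the normalized count, the reads on a gene divided by a size factor for its library. Reads on genes ranged from 16117357 to 19924590 per library at 1 h and from 15795456 to 19605557 at 4 h, and from 14921656 to 22464897 over the 27 libraries. One library stood apart from its group: replicate 1 at 1 h differed from replicates 2 and 3 by a chi-square of 46.7 and 65.9 per gene, against 8.73 between replicates 2 and 3 and 10.04 to 14.6 among the 4 h libraries. It lay over 1.5-fold above the mean of the other pair for 189 of 6036 genes and below it for 88. Calls of the genes named here that turn on it are given with and without it. The fits without it kept replicate 1 at 4 h, which was also the highest of its group for *ste11*, *mei2*, *pat1* and *ght5*. For such genes a larger rise without replicate 1 at 1 h is therefore not a corrected value. The label of the cells was checked with mating type genes: the 8 M-cell genes summed to 5103 to 6654 normalized counts at 1 h and 24745 to 34656 at 4 h, while the P-cell genes *map2*, *map3* and *map4* summed to 767 to 1677 at 1 h and 893 to 1055 at 4 h, with none of the 3 at 0 (the highest sum was that of replicate 1 at 1 h). In the deletion libraries *ppk18* stood at 142 to 246 and *cek1* at 23.9 to 165, against 3776 to 5746 and 2884 to 3811 in the wild type. The libraries labelled *igo1*∆ still held 1507 to 2577 normalized counts on *igo1* (2598 to 3317 in the wild type), a gene that overlaps another on the opposite strand, so the *igo1* counts did not show the deletion and these libraries are named by their label.

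Between 1 h and 4 h, 3487 of the 6036 genes tested (57.8%) changed at a Benjamini-Hochberg adjusted p below 0.05 in limma: 1636 (27.1%) were higher at 4 h and 1851 (30.7%) were lower. These shares are the background for the counts of called genes in the gene lists. Most changes were small. Over 2-fold, 217 genes (3.6%) were higher and 250 (4.14%) were lower, and the 3 libraries at 4 h did not overlap with the 3 at 1 h for 3946 genes (65.4%). Among 4990 protein-coding genes 28.7% were higher and 31.9% lower, and among 929 long non-coding RNAs 19.5% and 25.9%. The median log2 fold change of all genes tested was -0.0084, and 0.033 where all libraries were given equal totals. Without replicate 1 at 1 h, 3332 genes were called, 324 calls were lost and 169 gained, and none of the calls changed sign. In bulk samples such as these, fewer cells with an RNA and less RNA per cell cannot be told apart.

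**Figure D1:**
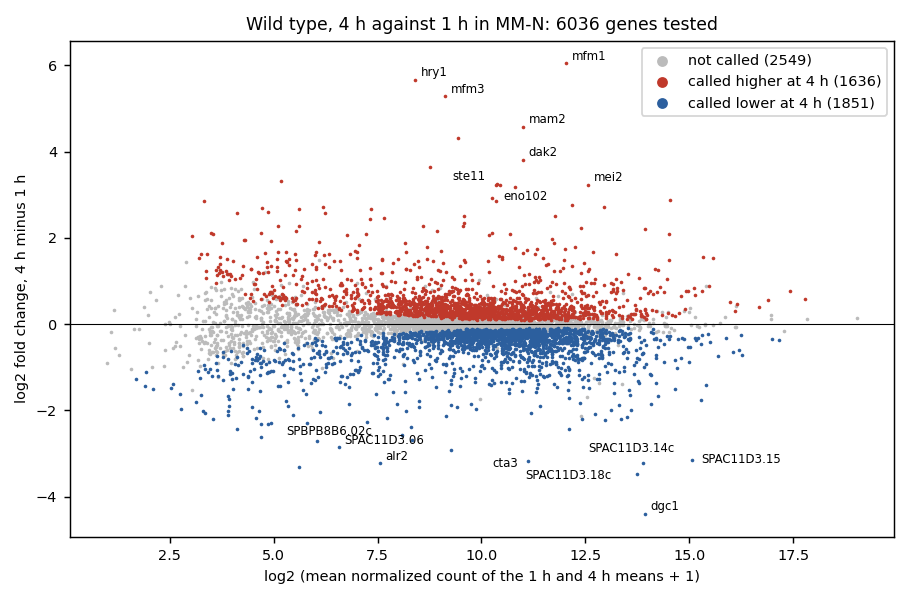
Each point is 1 of the 6036 genes tested, with the log2 of its mean normalized count at 1 h and 4 h on the x axis and its log2 fold change (4 h minus 1 h) on the y axis. The 8 largest rises and 8 largest falls among protein-coding genes are named: rises reach 6.05 for *mfm1*, and falls reach -4.40 for *dgc1*.

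The mating genes of M cells rose together and held 3 of the 4 largest rises of any protein-coding gene named here. *mfm1*, one of 3 genes for the M-factor precursor, stood at 175, 92.4 and 112 normalized counts in the 3 libraries at 1 h and at 10737, 6727 and 7450.2 at 4 h (65.6-fold, log2 fold change 6.05, standard error 0.42, limma adjusted p = 3.82e-11). The groups lay far apart, and the MM libraries, at 118, 79.1 and 63.5, were also low. *mfm3*, another M-factor gene, went from 22.2, 31.1 and 26.6 to 1426, 894 and 952 (log2 fold change 5.28), and *mam2*, the receptor for P-factor, from 184, 155 and 151 to 4863, 3432 and 3496 (log2 fold change 4.57). For both genes every library at 4 h lay far above every library at 1 h.

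All 8 M-cell genes were called higher, against 27.1% of all genes, and none of them overlapped between the times (65.4% of all genes did not). *mam1*, the ABC transporter that exports M-factor, stood at 2021, 1744 and 1876 at 1 h and 7216, 5919 and 5799 at 4 h (log2 fold change 1.74). *mam4*, the methyltransferase that finishes the M-factor tail, had fallen between MM (564, 458 and 377) and 1 h (196, 169 and 180.0) and returned at 4 h to 744, 548 and 616 (log2 fold change 4 h minus 1 h 1.79). *sxa2*, a carboxypeptidase that degrades P-factor, went from 377, 431 and 404 to 1189.6, 912 and 985. The change of *mam3*, an agglutinin of M cells, moved with the library that stood apart: 2033, 944 and 785 at 1 h against 4796, 2979 and 3886 at 4 h gave a log2 fold change of 1.73, and 2.15 without it. By their level per kilobase of annotated exon, the order of the M-factor genes changed with time. At 1 h *mfm2* led with 3559.9 ± 121 normalized counts per kilobase (SD, n = 3), above *mfm1* with 290.2 ± 99.0 and *mfm3* with 98.7 ± 16.5. At 4 h *mfm1* led with 19048 ± 4903, above *mfm2* with 7600.2 ± 583 and *mfm3* with 4039.9 ± 1079, and the 3 genes did not overlap at either time. These are short genes for precursors of the same peptide, and how reads shared between them were assigned was not given in the sources used here.

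**Figure D2:**
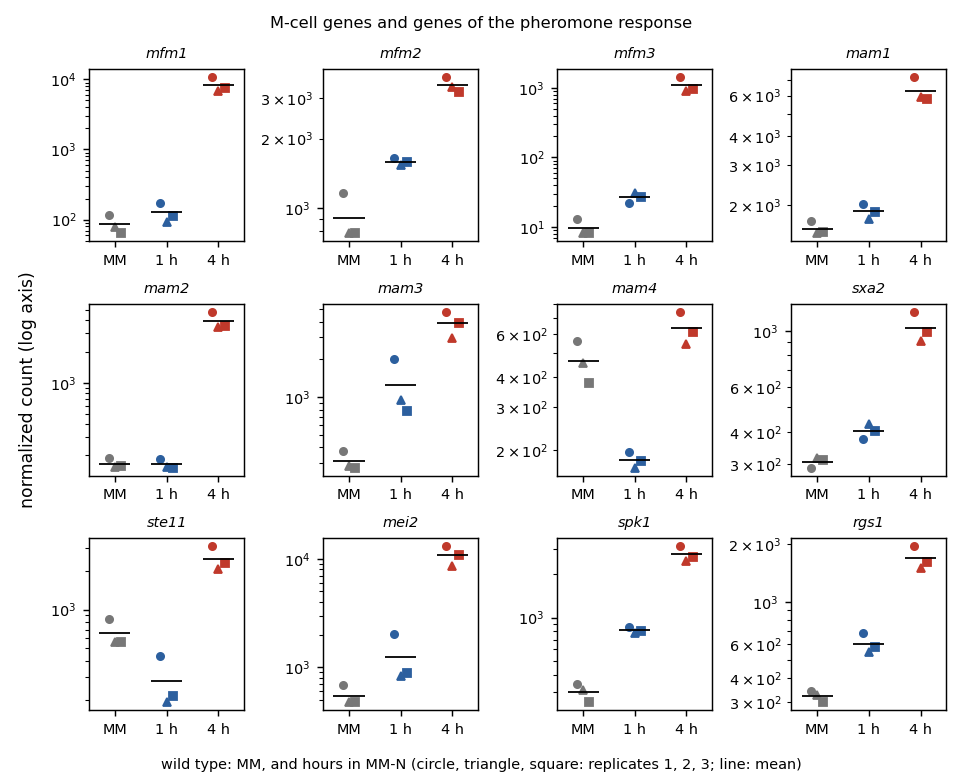
Normalized counts on log axes of the 8 M-cell genes and 4 genes of the pheromone response in the wild type, with a symbol for each of the 3 libraries in MM, at 1 h and at 4 h, and a line at their mean. All 12 genes are higher in every 4 h library than in any 1 h library; for *mfm1*, *mfm3* and *mam2* the MM and 1 h libraries lie close together at the bottom.

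*ste11* itself stood at 847, 558 and 560.4 in MM, 433, 191 and 216 at 1 h and 3107, 2049 and 2302 at 4 h (log2 fold change 3.22, standard error 0.33, limma adjusted p = 2.68e-08; 3.59 without replicate 1 at 1 h). It was thus lowest at 1 h and highest at 4 h, with no overlap between those times. *mei2*, the RNA-binding protein that starts meiosis, went from 2038, 826 and 879 to 13124, 8564 and 10911 (log2 fold change 3.23; 3.65 without that library). Of the 12 genes of pheromone signalling, *ste11* included, 9 were higher and 1 was lower (27.1% and 30.7% of all genes), with a median of 0.61. *spk1*, the MAP kinase at the end of the cascade, rose from 863, 780.2 and 805 to 3158, 2496 and 2654 (log2 fold change 1.76), and *rgs1*, which turns the pheromone G protein off, by 1.47. *ste6*, the exchange factor for Ras1, rose by 1.02 and *ste4*, the adaptor of the kinase Byr2, by 1.25. The 1 fall was that of *byr2* itself, the MAP kinase kinase kinase, from 1974, 1903 and 1945 to 1263, 1335 and 1327 (log2 fold change -0.57). *ras1* and *gap1*, its GTPase-activating protein, were not called, at -0.13 and -0.09.

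The other regulators of sexual differentiation did not move as one. Of 12 on the list, which also holds *ste11* and *mei2*, 4 were higher and 2 lower (27.1% and 30.7% of all genes), and 6 and 1 without replicate 1 at 1 h. *rep1*, a coactivator needed for premeiotic S phase, stood at 251, 265 and 272 at 1 h and 399, 398 and 433 at 4 h (log2 fold change 0.64). *rst2*, a zinc-finger activator of *ste11* held down by PKA, rose by 0.26. *pac2* fell from 5535, 5729 and 5709 to 3929, 4214 and 4208 (log2 fold change -0.46). The fall of the cyclin gene *pas1*, -0.77, was not called without the library that stood apart, in which it stood at 9829 against 4969 and 4553 in the other pair (-0.42, limma adjusted p = 0.155). *pat1*, the kinase that blocks meiosis, was also higher in that library (1479, 443 and 466 at 1 h, 1166, 709.6 and 884 at 4 h) and was not called with it but was without it (0.42 with it, 0.99 without, limma adjusted p = 0.0338). *ste7* and *esc1* stood at 2037, 587 and 537 and at 2837, 877 and 811 at 1 h and were called neither with that library (0.43 and 0.20) nor without it (1.05 and 0.78, limma adjusted p = 0.0659 and 0.114).

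Markers of P cells and of meiosis were measured beside these. None of the 3 P-cell genes was called: *map2*, the P-factor precursor, stood at 47.1, 42.2 and 23.4 at 1 h and 35.1, 25.2 and 18.5 at 4 h, and *map3*, the receptor for M-factor, at 289, 247 and 200.2 and 249, 203 and 239. At an unadjusted p below 0.05 the count among the 3 was 0, edgeR and DESeq2 called none, and 1 of the 3 was called lower in 3 other alternatives. Of 6 meiotic genes 1 was higher, *rec12* (the nuclease of meiotic recombination, 142, 137 and 138 to 221, 226 and 201.4), and 1 lower, *rec8* (meiotic cohesin, 384, 352 and 376 to 222, 289.7 and 295). Among all genes 27.1% were higher and 30.7% lower. The summed level of the 6 meiotic genes was 991 to 1068 at 1 h and 1007 to 1127 at 4 h.

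Most genes of S phase fell. Of 19 targets and parts of MBF, the transcription factor of the G1 to S transition, with other S-phase genes (*mik1* and *cig2* among them), 16 were lower (30.7% of all genes) and 1 was higher, with a median log2 fold change of -0.88. The large subunit of ribonucleotide reductase, *cdc22*, stood at 14396, 15517 and 16643 in MM, 58868, 62861 and 61444 at 1 h and 17003, 18051 and 19497 at 4 h (log2 fold change -1.75, standard error 0.059, limma adjusted p = 2.44e-16). Its 1 h libraries were thus higher than those on either side. *cdc18*, which loads the replicative helicase at origins, had the same order: 942, 1025 and 1108 in MM, 6558, 6407 and 6399 at 1 h and 1939, 2265 and 2580.1 at 4 h (log2 fold change -1.52), and its partner *cdt1* fell by 1.50 on the log2 scale. *mik1*, a kinase that inhibits Cdc2, fell from 1106, 1066 and 1045 to 282, 279 and 285 (log2 fold change -1.92), below its level in MM (587, 556 and 701). The MBF corepressors *yox1* and *nrm1* were lower by log2 fold changes of -1.44 and -1.21, while *cdc10*, the common subunit of MBF, was not called (-0.06). The rise was that of *spd1*, an inhibitor of ribonucleotide reductase, from 1784, 1873 and 1799 to 3118, 3035 and 3249 (log2 fold change 0.78). *suc22*, the small subunit of that enzyme, was not called, at 0.05.

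Of the 6 subunits of the MCM helicase 5 were lower (30.7% of all genes), from -0.77 for *mcm2* to -0.23 for *mcm6*, and *mcm7* was not called (-0.09). Histone genes split: 5 of 11 were lower and 3 higher, the latter near the share of all genes (30.7% lower, 27.1% higher). The lower ones included *pht1* (histone H2A.Z, 1625, 1648 and 1592 to 933, 995 and 984), *cnp1* (the centromeric H3) and *hht1* (H3, log2 fold change -0.60), while the other H3 genes *hht2* and *hht3* rose by 0.32 and 0.35. The H3 genes code for near-identical proteins, so reads may be shared between them.

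Of 17 genes that regulate Cdc2 and mitosis, 9 were lower and 1 higher (30.7% and 27.1% of all genes), but 6 lower and 4 higher without replicate 1 at 1 h. Apart from *mik1*, *cig2* (the S-phase cyclin) went from 4781, 3314 and 3382 to 1546, 1291 and 1489.9 (log2 fold change -1.39), and *srw1* (also known as *ste9*, which directs the destruction of mitotic cyclins in G1) from 2878, 2762 and 2519.7 to 1619, 1852 and 1684 (-0.66). *plo1*, the Polo kinase, rose from 2019, 1983 and 2132 to 2373, 2646 and 2612 (0.31). The Cdc2 inhibitor gene *rum1* stood at 1662, 1399.7 and 1341 and 1764, 1553 and 1632 and was not called, but was without replicate 1 at 1 h (0.17 with it, 0.27 without, limma adjusted p = 0.0221), and the mitotic cyclin gene *cdc13* was not called (-0.07). *wee1* and *cdc25*, the kinase and phosphatase that time mitosis, were high in replicate 1 at 1 h (1657, 698 and 574 for *wee1*, 2228, 1245 and 1320.0 for *cdc25*). They were not called with that library and were called higher without it: *wee1* went from 0.37 to 0.83 (limma adjusted p = 0.0256) and *cdc25* from 0.37 to 0.63 (limma adjusted p = 0.047).

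Of 13 septation genes 8 were lower and 1 higher (30.7% and 27.1% of all genes), but 6 lower and 2 higher without replicate 1 at 1 h. *adg1*, a cell surface glycoprotein, stood at 2330.4, 2556 and 2393 in MM, 14206, 12902 and 12484 at 1 h and 2389, 3122 and 3004 at 4 h (log2 fold change -2.22, standard error 0.099, limma adjusted p = 1.47e-14), so that the peak at 1 h was gone at 4 h. *eng1* and *agn1*, the glucanases that dissolve the septum, had the same order of levels: *eng1* went from 73628, 58792 and 55659 to 21313, 23954 and 24966 (log2 fold change -1.41) and *agn1* from 17402, 18118 and 17617 to 5716, 6547 and 6310.0 (-1.52). At 4 h both still stood above their MM levels, 10532, 11548 and 11989.9 and 2761, 2840.3 and 2956. *mid1*, which places the division ring, rose by 0.24, and the cell wall synthases *ags1* and *bgs4* fell by 0.33 and 0.32 on the log2 scale, calls lost without that library (-0.25 and -0.24).

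**Figure D3:**
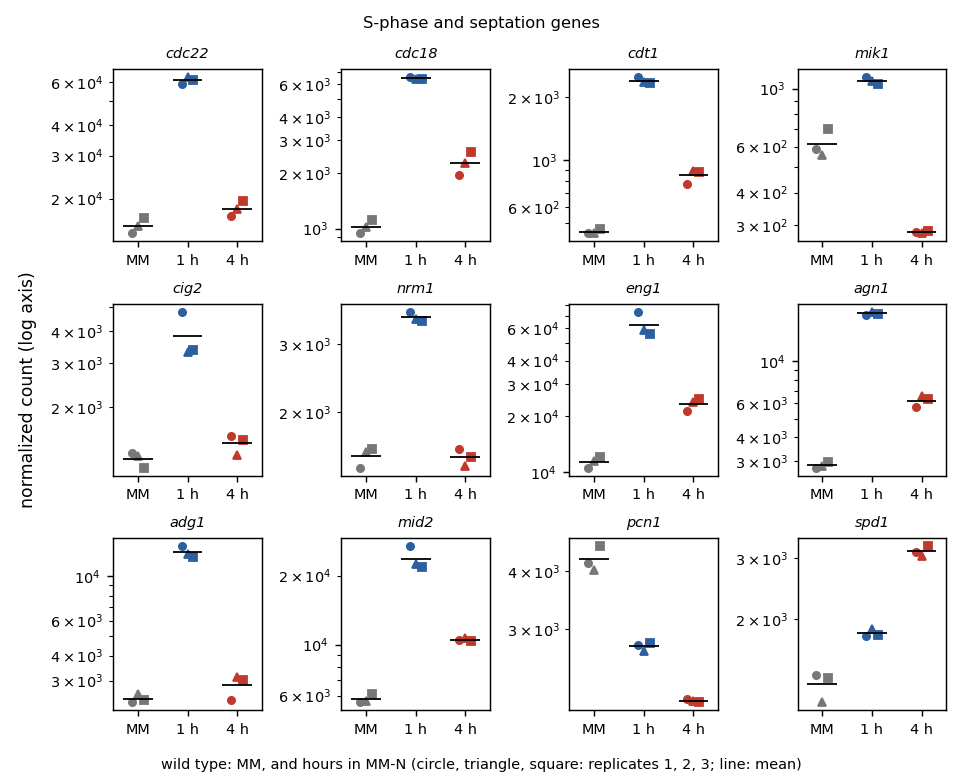
Normalized counts on log axes of 12 S-phase and septation genes in the wild type in MM, at 1 h and at 4 h, 3 libraries each with a line at the mean. For 11 of them the 4 h libraries lie below the 1 h libraries, and *spd1* is higher at 4 h; *cdc22*, *cdc18*, *eng1* and *adg1* are higher at 1 h than in MM.

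Ribosomal protein genes, which had fallen steeply by 1 h, went on falling. Of 76 genes for 60S proteins 63 were lower and 5 higher, with a median of -0.62, and of 55 for 40S proteins 44 were lower and 1 higher, with a median of -0.60, beside 30.7% lower and 27.1% higher among all genes. The 60S genes together took 7.15% to 7.74% of normalized counts in MM, 1.35% to 1.72% at 1 h and 1.01% to 1.05% at 4 h. As examples, *rps1401* went from 2105, 2664 and 2544 to 861, 781 and 772 (log2 fold change -1.59), *rpl2302* from 4479, 5775 and 5573 to 1876, 1982 and 1888 (-1.45) and *rps401* from 6745, 8649 and 9305 to 2886, 3136 and 2835 (-1.47). A few copies rose: *rpl3002* from 44.4, 52.2 and 50.1 to 94.6, 76.5 and 68.5 (0.69) and *rpl102* from 845, 903 and 1004 to 1178, 1261 and 1206 (0.41). The rises of *rps1902* and *rpl1603* were not called without replicate 1 at 1 h (0.18 and 0.24), and the 60S and 40S medians stood at -0.74 and -0.68 without it. Many of these genes come in pairs of near-identical copies, between which reads can be split.

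The 20 ribosome biogenesis genes did not follow: 9 were higher and none lower (27.1% and 30.7% of all genes), and 7 and 0 without replicate 1 at 1 h. Of the 20, 10 had an unadjusted p below 0.05, and the other tools, edgeR and DESeq2, called none lower. Their median was 0.12, and at 4 h they remained below MM, with a median of -1.57 against it. *nsa2*, a factor in 60S assembly, stood at 2200.4, 2129.7 and 2410.1 in MM, 801, 854 and 880.0 at 1 h and 1259, 1320.0 and 1259 at 4 h (log2 fold change 0.60), and the GTPase *nog1* at 2489, 2614 and 2610.1 and 3634, 3676 and 3514 (0.49). *nuc1*, the largest subunit of RNA polymerase I, rose by 0.21, while *fib1*, fibrillarin, was not called (-0.23).

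The largest falls included enzymes and transporters of D-amino acids, oxoproline and urea. *dgc1*, annotated as D-glutamate cyclase, stood at 4176, 4335 and 5519.7 in MM, 26083, 32388 and 30805 at 1 h and 1159, 1597 and 1482 at 4 h, 21.1-fold lower at 4 h (log2 fold change -4.40, standard error 0.16, limma adjusted p = 4.45e-16). Its 4 h libraries lay below both the 1 h and the MM libraries. Of the 8 largest falls 4 share the systematic ID prefix SPAC11D3, by which neighbours on a cosmid are named: SPAC11D3.18c, a carboxylic acid transporter, fell from 20359, 28944 and 25826 to 2015, 2422 and 2306 (log2 fold change -3.47). SPAC11D3.14c and SPAC11D3.15, both annotated as oxoprolinases, had log2 fold changes of -3.22 and -3.14, and SPAC11D3.06, a MatE family transporter, one of -2.85. Chosen after their values were seen, all 19 genes with this prefix gave 11 lower and 2 higher (30.7% and 27.1% of all genes), with a median of -0.44. By over 2-fold 6 of them were lower, beside 4.14% of all genes. *alr2*, alanine racemase, went from 2.63, 1.15 and 0 in MM to 349, 341 and 325 at 1 h and 24.4, 41.5 and 42.7 at 4 h, and the urea transporter gene SPBPB8B6.02c from 467, 463 and 456 to 89.7, 74.9 and 68.5. *cta3*, a P-type calcium ATPase, fell from 4368, 3907 and 3794 to 484, 425 and 417 (log2 fold change -3.18).

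Genes with the ID prefix SPAC869 moved both ways and far. Of 11 tested 7 were higher and 3 lower (27.1% and 30.7% of all genes), with a median of 2.15. *hry1*, a cation-binding protein of the HHE (hemerythrin-like) family, stood at 2.63, 2.29 and 1.01 in MM, 13.3, 10.04 and 12.9 at 1 h and 736, 637 and 614 at 4 h (log2 fold change 5.67, standard error 0.30, limma adjusted p = 2.72e-13). SPAC869.03c, a urea transporter, went from 9.20, 14.9 and 8.06 in MM to 5809, 5894 and 5254 at 1 h and 40804, 41619.5 and 41989.6 at 4 h (log2 fold change 4 h minus 1 h 2.88), so that a rise by 1 h was followed by another by 4 h. *sul2*, a sulfate transporter, had fallen by 1 h and came back: 5173, 5602 and 4658, then 985, 1102 and 1049, then 5365, 6198 and 6276 (log2 fold change 4 h minus 1 h 2.50). *mel1*, a melibiase, rose by 2.50, and *pcm2*, a protein repair methyltransferase, by 2.43. In contrast *cat1*, the arginine and lysine transporter, fell by 1.54, the proline transporter *put4* by 0.88 and the nitric oxide dioxygenase *yhb1* by 0.78 on the log2 scale.

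Of 8 genes of ammonium uptake and assimilation 5 were lower and 1 higher (30.7% and 27.1% of all genes). *gdh1*, the NADP-linked glutamate dehydrogenase, stood at 22809, 24724 and 26253 in MM, 26741, 31503 and 30408 at 1 h and 8712, 9922 and 9224 at 4 h (log2 fold change -1.67, standard error 0.065, limma adjusted p = 1.95e-15). The ammonium transporters differed: *amt3* fell from 157, 173 and 166 to 68.3, 73.2 and 79.0 (log2 fold change -1.16) and *amt2* by 0.53, while *amt1* was not called (25888, 21581 and 20454 against 19829, 19803 and 19414, and 5051, 4858 and 4959 in MM). Glutamate synthase (*glt1*) and glutamine synthetase (*gln1*) fell by 0.45 and 0.35 on the log2 scale. The rise was that of *gaf1*, a GATA transcription factor of nitrogen genes, by 0.59 (0.83 without replicate 1 at 1 h). Among 11 amino acid and peptide transporters 4 were higher and 5 lower, beside the same shares of all genes. *isp4*, an oligopeptide transporter, went from 31197, 22452 and 21519 to 75382, 67954 and 72399 (log2 fold change 1.54) and *ptr2*, a dipeptide transporter, from 9542, 6353 and 6239 to 16702, 15749 and 16020.4 (1.16). *per1*, an amino acid permease, rose by 0.77, and *avt5*, a vacuolar amino acid transporter, fell by 0.56, in addition to *cat1* and *put4*.

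Autophagy-related genes, which had risen by 1 h (list median 1.04 against MM), rose a little further: 17 of 28 were higher (27.1% of all genes) and 2 lower, with a median of 0.19. The study chose to show this list from the same libraries, which is therefore not independent evidence of its direction. *atg43*, a mitophagy receptor, stood at 1073, 1111 and 1164 in MM, 3168, 3287 and 3061 at 1 h and 4744, 4823 and 4848 at 4 h (log2 fold change 0.60, standard error 0.043, limma adjusted p = 6.75e-11). *atg1802*, a phosphoinositide-binding protein of the growing autophagosome, rose from 893, 939.8 and 920.4 to 1428, 1378 and 1381 (log2 fold change 0.60), and *cpy1*, vacuolar carboxypeptidase Y, from 99292, 99405 and 95148 to 139763, 144198 and 148705 (0.56). For each of these 3 genes the times did not overlap. *atg1*, the kinase that starts autophagy, had risen from 1052, 1119 and 993 in MM to 6502, 5099 and 4866 at 1 h and stood at 5187, 5089 and 5759.7 at 4 h, with no call between the starved times (-0.03). *atg8*, the ubiquitin-like protein of the autophagosome membrane, was not called either (1845, 2064 and 2011 against 2139, 2151 and 2157, 0.12, limma adjusted p = 0.0553). The 2 falls were *atg24*, a sorting nexin (-0.23), and *atg3*, the enzyme that joins Atg8 to lipid (-0.21).

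Of the vacuole's proteases, all 3 on the list were higher (27.1% of all genes), among them *cpy1*, which is also on the autophagy list. *isp6*, a vacuolar serine protease, stood at 7131, 7385 and 7612 in MM, 185942, 184678 and 172167 at 1 h and 264323, 275652 and 278503 at 4 h (log2 fold change 4 h minus 1 h 0.59), and *psp3*, its relative, rose by 0.32. The 3 genes together took 0.306% to 0.318% of normalized counts in MM, 1.75% to 1.86% at 1 h and 2.73% to 2.81% at 4 h. Of 15 V-ATPase genes, which acidify the vacuole, 5 were higher and 1 lower (27.1% and 30.7% of all genes). The share higher was near that of all genes. The largest rise was *vma11* at 0.40 and the fall *vma7* at -0.26. Of 19 genes for the 19S particle of the proteasome 9 were lower and 2 higher (30.7% and 27.1% of all genes). All lay within -0.31 (*rpn11*) and 0.20 (*rpn501*), and *rpn501* was not called without replicate 1 at 1 h (0.13).

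For the Greatwall, Endosulfine and PP2A switch itself the changes were within -0.57 and 0.45 among the genes called. Of 10 Greatwall, Endosulfine and PP2A genes 1 was higher and 3 were lower, and the share lower was near that of all genes (27.1% of which were higher and 30.7% lower). The counts were 2 higher and 2 lower where all libraries had equal totals. *ppa1*, a minor catalytic subunit of PP2A, rose from 1404, 1461 and 1436 to 1905, 1991 and 2002 (log2 fold change 0.45, standard error 0.041, limma adjusted p = 3.21e-09), and the major one, *ppa2*, fell from 2967, 3253 and 3180.1 to 2591, 2713 and 2565 (log2 fold change -0.26). *par2*, a B56 regulatory subunit, fell from 3571, 2963 and 2870.1 to 2140.3, 2074 and 2082 (-0.57). *igo1* stood at 2875, 3193 and 3149 and 2638, 2899 and 2598 (-0.18, limma adjusted p = 0.0389), a call that was lost in 8 of 17 alternatives, among them edgeR (0.0616) and equal library totals (0.16). The libraries labelled *igo1*∆ also held 1507 to 2577 counts on this gene, so how much of the wild type count came from *igo1* was not settled. *ppk18*, *cek1* and the B55 gene *pab1* were not called, at -0.11, -0.11 and 0.0092.

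Of 22 TOR pathway genes 10 were higher and 7 lower, the latter near the share of all genes (27.1% higher, 30.7% lower), with a median of -0.017. *sck2* and *psk1*, kinases of the S6 kinase type that act below TORC1, rose from 2614, 2839 and 2699.7 to 3979, 4009.5 and 3949 (log2 fold change 0.55) and from 1874, 1997 and 1883 to 2862, 2743 and 2605 (0.51). *gtr1*, a Rag-type GTPase that signals amino acids to TORC1, rose by 0.44. *wat1*, a subunit of both TOR complexes, *gad8*, the kinase below TORC2, and *tsc1*, an inhibitor of TORC1, fell by 0.45, 0.38 and 0.26 on the log2 scale. *tor1* rose by 0.23 and *tor2* was not called (-0.055).

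Genes of the cAMP-PKA pathway, which signals glucose, were higher in 7 of 11 cases and lower in 2 (27.1% and 30.7% of all genes). *git5*, the beta subunit of its G protein, went from 1043, 1159 and 1130.3 to 1942, 1969 and 1952 (log2 fold change 0.82), *gpa2*, the alpha subunit, from 1189.7, 1102 and 1126 to 2028, 1781 and 1874 (0.73), and *cgs1*, the regulatory subunit of PKA, from 4042, 4429 and 4418 to 7363, 7023 and 6898 (0.72). In the Sty1 stress pathway and trehalose metabolism 11 of 16 genes were higher and 3 lower (again against 27.1% and 30.7%), with a median of 0.64. *ctt1*, catalase, stood at 6750.5, 7277 and 7372 at 1 h and 14382, 13335 and 14082 at 4 h (log2 fold change 0.97, standard error 0.094, limma adjusted p = 9.8e-09). *hsp9*, a small stress protein, rose by 0.89, *atf1*, the transcription factor that Sty1 activates, by 0.89, and *tps1*, which makes trehalose phosphate, by 0.70. The falls were small, -0.25 for *tpp1* (trehalose phosphatase), -0.20 for *mcs4* (a response regulator) and -0.18 for *sty1* (the MAP kinase). None of the 3 was called under quantile normalization (-0.09, -0.14 and -0.11), nor *mcs4* and *sty1* where all libraries had equal totals. *mcs4* was not called without replicate 1 at 1 h either (-0.16, limma adjusted p = 0.0713).

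Chaperone genes had fallen sharply by 1 h (list median -2.59 against MM). At 4 h 7 of 13 were higher than at 1 h and 4 lower, the latter near the share of all genes (27.1% higher, 30.7% lower). *ssa1*, an Hsp70, stood at 4951, 3416 and 4912 in MM, 617, 636 and 618 at 1 h and 2943, 2430.0 and 2564 at 4 h (log2 fold change 2.08, standard error 0.13, limma adjusted p = 7.15e-12), a partial return. The disaggregase *hsp104* went from 3548, 3564 and 3826 to 8564, 8559 and 8512 (log2 fold change 1.23) and the DnaJ-type *psi1* rose by 0.83. In the other direction *hsp16*, a small heat shock protein, fell from 712, 985 and 974 to 408, 369 and 430.3 (-1.13).

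In carbon metabolism, 5 of 8 hexose transporter genes were higher and none lower (27.1% and 30.7% of all genes). At an unadjusted p below 0.05 the count was 5, and edgeR and DESeq2 each called 1 lower. *ght5*, the main high-affinity glucose transporter, stood at 4353, 1354 and 1479.8 at 1 h and 9698, 5813 and 6311 at 4 h (log2 fold change 1.78), with replicate 1 the highest at both times, and at 2.32 without that library at 1 h. *ght8* and *ght2* rose by 1.27 and 0.86. Per kilobase of exon, *ght8* led at 4 h with 10323 ± 984 normalized counts (SD, n = 3), then *ght5* with 3524 ± 1024 and *ght2* with 2515 ± 136. Of the glycolytic genes, 3 of 16 were higher and 2 lower, both below the shares of all genes. *eno102*, a second enolase, went from 241, 286 and 224 to 2394, 2712 and 2041 (log2 fold change 3.24, standard error 0.25, limma adjusted p = 2.78e-10), while the main enolase *eno101* fell by 0.38 on the log2 scale, a call lost without replicate 1 at 4 h (-0.34, limma adjusted p = 0.0677). Per kilobase at 4 h *eno102* was still at 1532 ± 216 against 86504 ± 4252 for *eno101*. *gpd3*, a glyceraldehyde-3-phosphate dehydrogenase, rose from 18577, 23336 and 21659.8 to 62021, 60957 and 62151 (1.55), and *tdh1*, the main one, was not called (0.14). *dak2*, dihydroxyacetone kinase, went from 230.1, 265 and 319.7 to 3307, 4036 and 4115 (3.81).

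Of 11 genes of sulfate and methionine metabolism 3 were higher and 5 lower (27.1% and 30.7% of all genes). The higher ones were those for 3 enzymes of sulfate assimilation and cysteine synthesis (*sua1*, sulfate adenylyltransferase, 1.34; *sir1*, sulfite reductase, 0.52; *cys11*, cysteine synthase, 0.24). *sua1* stood at 43920, 49785 and 48890.2 in MM, 2184, 2810.4 and 2865 at 1 h and 5924, 6916 and 6986 at 4 h. *sam1*, S-adenosylmethionine synthetase, fell from 16512, 19149 and 21082 to 4048, 4544 and 4169 (log2 fold change -2.15, standard error 0.093, limma adjusted p = 9.19e-15), and *met26*, methionine synthase, and *met6*, homoserine acetyltransferase, fell by 1.51 and 0.90 on the log2 scale. Among 8 thiamine genes 4 were higher and 2 lower, beside the same shares of all genes. *bsu1*, a vitamin transporter, went from 1395, 1464 and 1471 to 4775, 5342 and 6022 (1.89), and *pho4*, the thiamine-repressed phosphatase, and *thi9*, the thiamine transporter, rose by 1.05 and 0.97. Of 12 iron genes 4 were higher and 5 lower, again beside these shares of all genes. *str1*, a siderophore transporter, rose from 211, 271 and 245 to 611, 731 and 648 (1.45), and *php4*, which represses iron-using genes when iron is low, fell by 0.59. The fall of the iron sensor gene *fep1* (-0.48) was not called without replicate 1 at 1 h (-0.33).

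Non-coding RNAs also changed. *omt3* went from 79.1, 50.2 and 67.8 to 1600.1, 1099 and 1253 (log2 fold change 4.31), *nam3* from 54.2, 76.3 and 60.5 to 792, 767 and 833 (3.64) and *meu3* from 25.8, 33.1 and 25.0 to 110.2, 105 and 104 (1.90), and SPNCRNA.791 rose by 2.06. The largest falls were SPNCRNA.863 (1164, 1056 and 1043 to 145, 143 and 143, -2.91), SPNCRNA.1061 (-2.70), SPNCRNA.1690 (-2.68) and SPNCRNA.1197 (-2.39). Apart from *nam3*, each of these 8 overlaps a gene on the opposite strand, and the strand setting of the counting was not given in the sources used here, so reads of the 2 partners may not have been told apart. The same limit holds for all 8 of the largest protein-coding falls, and for the 8 largest protein-coding rises apart from *mfm1* and *mam2*. Of 32 snoRNAs tested 7 were higher and 1 lower (27.1% and 30.7% of all genes). Among the rises were *snR51b* (3.55, 8.03 and 11.3 to 35.1, 33.4 and 22.6) and *snoU14* (476, 572 and 546 to 1148, 1246 and 1149.8, 1.15). The 1 fall, *snoR69b* (-0.52, limma adjusted p = 0.0499), was lost in 12 of 17 alternatives, among them that without replicate 1 at 1 h (-0.53). Of 23 RNAs tested from the mitochondrial genome 2 were higher and 6 lower, beside the same shares of all genes. The higher ones were messenger RNAs (SPMIT.01 0.39, SPMIT.11 0.47) and the lower ones all tRNAs. Summed, the 23 RNAs took 1.40% to 1.73% of normalized counts at 1 h and 1.94% to 2.13% at 4 h, so their total rose. SPMIT.01 stood at 0.10 and was not called under quantile normalization (limma adjusted p = 0.485). Of 12 copies of the Tf2 retrotransposon tested 4 were lower, near the share of all genes, led by *Tf2-11* (605, 533 and 574 to 144, 132 and 173, -1.93). None was higher at an unadjusted p below 0.05 or by edgeR or DESeq2. The copies are near-identical and can share reads.

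**Figure D4:**
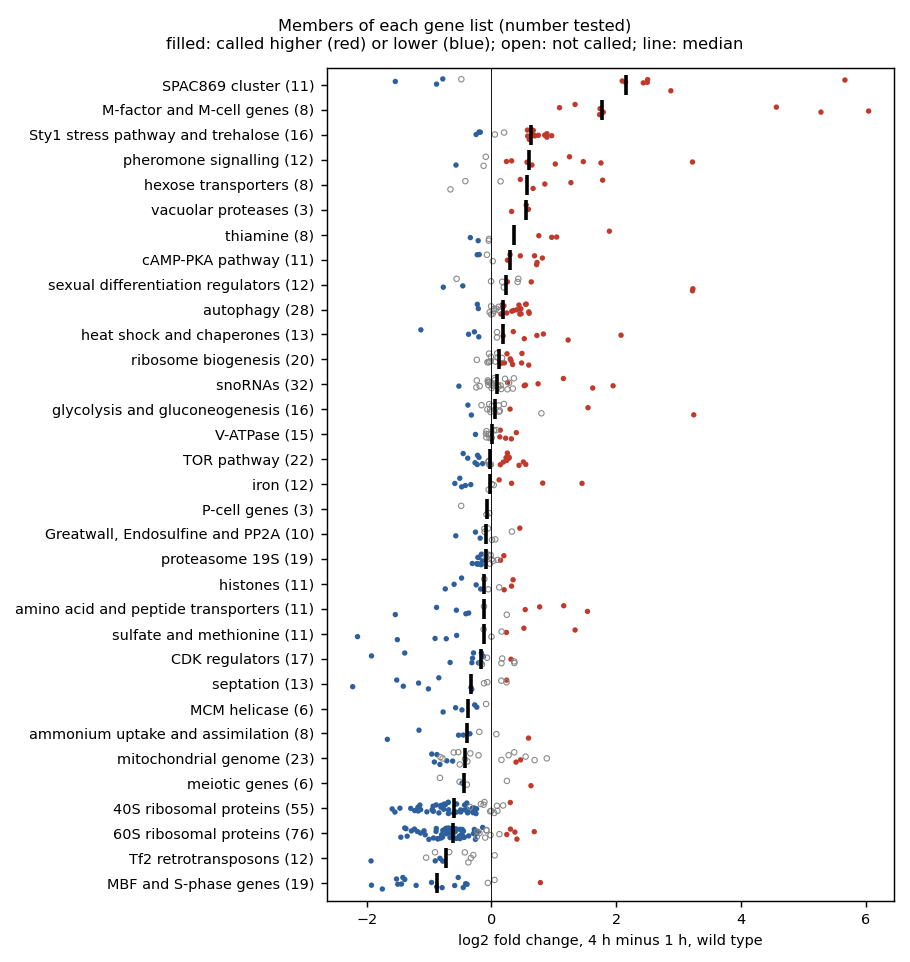
Log2 fold change (4 h minus 1 h, wild type) of every tested member of the 33 gene lists, 1 list a row with its number of members tested, ordered by the list median (vertical line). Filled points were called higher (red) or lower (blue) and open points were not called; the lists with the highest medians are SPAC869 (2.15) and M-cell genes (1.77), and that with the lowest is MBF and S phase (-0.88).

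To ask whether the change in the wild type differed from that in the strains without the switch, the difference of the 4 h minus 1 h changes was tested for each gene. In the libraries labelled *igo1*∆ it differed for 3339 of 6036 genes (55.3%), more positive than in the wild type for 1773 (29.4%) and more negative for 1566 (25.9%), and in *ppk18*∆ *cek1*∆ for 3132 (51.9%), 1650 (27.3%) more positive and 1482 (24.6%) more negative. Where all libraries were given equal totals, the split turned to 1210 more positive and 2141 more negative, and 1174 and 1974, as the median difference of all genes moved to -0.13 and -0.10. Both differences share the wild type libraries. All 8 M-cell genes had a more negative change than the wild type in the libraries labelled *igo1*∆, and 7 of 8 in *ppk18*∆ *cek1*∆. *mfm1*, at 6.05 in the wild type, changed by -2.05 and -2.48 (differences -8.10 and -8.52, limma adjusted p = 8.94e-11 and 4.93e-11): its mean fell from 95.5 ± 17.2 to 29.6 ± 28.0 (SD, n = 3) and from 162 ± 60.9 to 27.4 ± 5.78. *mfm3* and *ste6* had the next most negative differences in the former (-6.83 and -5.43), and *mfm3* and *mam2* in the latter (-6.85 and -5.63). These ranks are among genes with a mean of at least 50 over the wild type libraries at 1 h and 4 h. *mam2* also differed in the former (-5.32) and *ste6* in the latter (-5.06). For *ste11*, the changes were 0.56 and 1.02 beside 3.22, and for *mei2* -0.54 and 0.31 beside 3.23.

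Among S-phase and septation genes the falls were larger in both strains for those named here. For *cdc18* the changes were -4.57 and -3.88, beside -1.52 in the wild type, and for *eng1* -4.95 and -4.02, beside -1.41. Of the 19 MBF and S-phase genes 10 had a more negative change in each comparison and 3 and 4 a more positive one, and of 13 septation genes 8 and 1. Among all genes 25.9% and 24.6% had a more negative change, and 29.4% and 27.3% a more positive one. On the other side, 12 of 16 genes of the Sty1 list and 10 of 11 of the cAMP-PKA list had a more positive change in each comparison: *ctt1* by 3.38 and 3.32 beside 0.97, and *hsp9* by 4.33 and 4.23 beside 0.89. The 12 Tf2 copies had more positive changes in 11 and 12 cases. Among genes with a mean of at least 50 in the wild type, *inv1*, external invertase, had the most positive difference in both (8.09 and 7.44). It went from 723, 703 and 683 to 283, 214 and 268 in the wild type, and to a mean of 22997 and 21142 at 4 h in the others. *cta3* fell in the wild type and rose by 2.63 and 2.63 there. *ddr48* rose by 7.73 and 7.75 there beside 2.72, and the adducin gene SPBC1289.14 by 4.09 and 4.49 beside -0.60. *gdh1* did not fall there, at 0.22 and -0.12 beside -1.67, and *atg11*, a scaffold of autophagy, changed by -0.26 and -0.21 beside 0.20. By list, 14 of 28 autophagy genes had a more positive change in each comparison (29.4% and 27.3% of all genes). A more negative one was called for 4 and 3 (25.9% and 24.6% of all genes). The list counts of these differences were not repeated with equal library totals, where the split of all genes turned to more negative. These counts compare changes, not levels, and a more positive change can start from a lower level at 1 h. The study reported reduced expression of autophagy genes in both mutants during nitrogen starvation, relative to the wild type. Levels of this list were not compared between strains here. The genes *cdc18*, *eng1*, *ctt1*, *hsp9*, *ste11*, *mei2*, *gdh1* and *atg11* were chosen for this comparison after their values were seen.

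**Figure D5:**
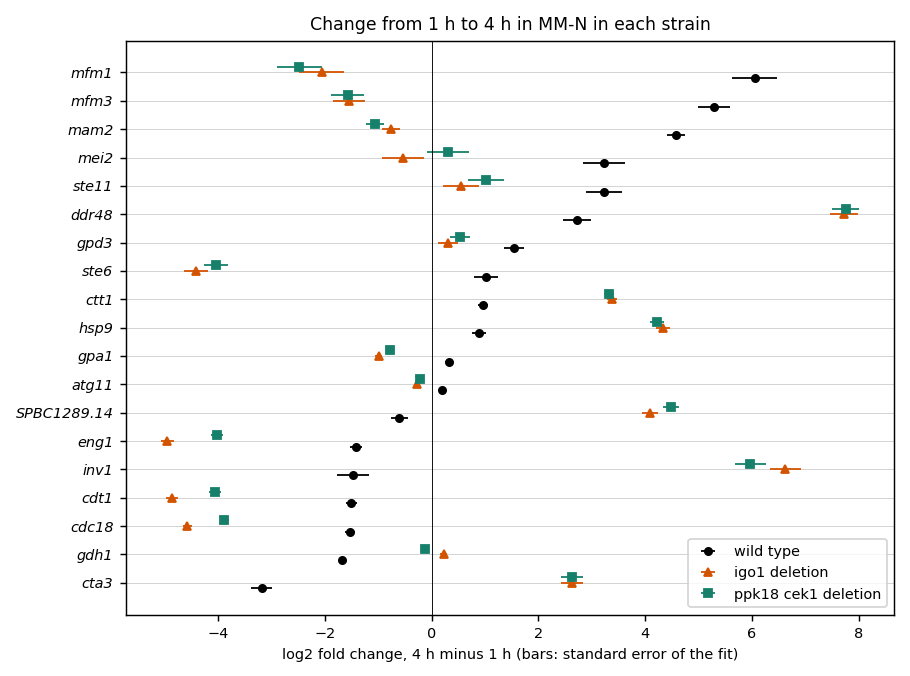
Log2 fold change from 1 h to 4 h in MM-N of 19 genes in the wild type (circles), the libraries labelled *igo1*∆ (triangles) and *ppk18*∆ *cek1*∆ (squares), with the standard error of the fit as bars. The wild type lies to the right of both other strains for *mfm1*, *mfm3*, *mam2*, *mei2* and *ste11*, and to their left for *ddr48*, *inv1* and *cta3*.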

How the data were processed

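Total RNA was depleted of ribosomal RNA (Ribo Zero), made into TruSeq Stranded libraries and sequenced. Per the labels and the study's methods the authors used FastQC 0.11.8, Trimmomatic 0.38, HISAT2 2.1.0 (ASM294v2 genome), featureCounts of Subread 1.6.3 and DESeq2; whether counting used strand was not given in the sources used here. The deposited signal values were counts of reads per gene divided by 1 DESeq2 size factor per library by the authors, with replicates kept apart. All values (100% within 0.05) were whole multiples of 1 step per library, from which whole reads were recovered for depth, edgeR and DESeq2. Deposited values, not reads, entered the main test.

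Genes with a mean of at least 10 normalized counts over the 27 time-course libraries (6036 of 7001) were tested with limma 3.58.1 (R 4.3.3; trended, moderated variance) on log2(value + 1), which understates changes of low genes, with 9 group means and no covariate; calls are Benjamini-Hochberg adjusted p below 0.05 over all genes. Differences between strains were interaction terms of the same fit. Figures and tables used Python 3.11.15, pandas 2.3.3, numpy 2.4.6 and matplotlib 3.10.9. Tested on simulated data for wild type 4 h against 1 h, the fit recovered 100 of 100 genes changed 2-fold and 100 of 100 changed 4-fold, with 8 false calls among 6036. Every simulated gene had the same spread between libraries beyond counting noise, and no library stood apart. The changed genes all had a mean of at least 50. Recovery of smaller changes or of low genes, and false calls from a library that stands apart, were not tested. Alternatives were edgeR 4.0.16, DESeq2 1.42.0, other scalings, filters, pseudocounts, sample sets, a replicate block and leaving out each library. Library preparation dates or batches were not given in the sources used here.

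Gene names, biotypes, exon lengths and overlaps came from RefSeq (ASM294v3; 6852 of 7001 genes matched), and no coordinates or sequences are given because the builds differ. Named genes were up to 3 called rises and 3 called falls per list, the 8 largest protein-coding and 4 largest other changes each way, and the 3 largest interactions each way. The last 2 kinds were taken among called genes with a mean of at least 50. For the largest changes, but not the interactions, the groups also had to be without overlap. Genes named beyond that rule, such as those not called, were chosen after their values were seen. The members and lists were chosen with earlier results of these data known. The overexpression libraries of the series were not used here. One gene of a list is not reported here by name.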

Additional observations from a re-analysis of the deposited data

Results flagged for a closer look

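The change from 1 h to 4 h differed between the wild type and a deletion strain, by limma's interaction term at a Benjamini-Hochberg adjusted p below 0.05, for 3339 genes in the libraries labelled *igo1*∆ and 3132 in *ppk18*∆ *cek1*∆. Groups of 3 libraries were not searched gene by gene for a single outlying value. Of the genes followed up, the differences (log2 fold change of the strain minus that of the wild type) in the libraries labelled *igo1*∆ were 8.09 for *inv1*, 5.81 for *cta3*, 5.01 for *ddr48*, 3.45 for *hsp9*, 2.42 for *ctt1* and 1.89 for *gdh1*, all more positive than in the wild type. On the other side they were -8.10 for *mfm1*, -6.83 for *mfm3*, -5.43 for *ste6*, -3.77 for *mei2*, -2.67 for *ste11* and -1.32 for *gpa1* among mating genes. They were -3.53 for *eng1*, -3.36 for *cdt1* and -3.05 for *cdc18* among cell cycle genes, -1.24 for *gpd3* and -0.46 for *atg11*.

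In *ppk18*∆ *cek1*∆ the differences were 7.44 for *inv1*, 5.81 for *cta3*, 5.09 for SPBC1289.14, 3.34 for *hsp9*, 2.35 for *ctt1* and 1.54 for *gdh1*. They were -8.52 for *mfm1*, -6.85 for *mfm3*, -5.63 for *mam2*, -2.92 for *mei2*, -2.20 for *ste11* and -1.11 for *gpa1* among mating genes. They were -2.61 for *eng1*, -2.55 for *cdt1* and -2.35 for *cdc18* among cell cycle genes, -1.02 for *gpd3* and -0.41 for *atg11*. The genes given above for a single strain also differed in the other. The differences were 5.03 for *ddr48* and -5.06 for *ste6* in *ppk18*∆ *cek1*∆. In the libraries labelled *igo1*∆ they were 4.69 for SPBC1289.14 and -5.32 for *mam2*. Both sets of differences share the 6 wild type libraries.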

How the results depend on the processing

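Under 17 alternatives the number of genes called between 1 h and 4 h in the wild type lay between 3185 and 3615 (3487 in the fit reported), and no gene called in both changed direction. Leaving out each of the 6 libraries gave 3185 to 3332. The share of calls that were higher was 46.9%, 50.7% by edgeR and 53.1% where all libraries were given equal totals. Whether replicate numbers pair the libraries was not settled. Over all genes tested, deviations of same-numbered libraries at 1 h and 4 h correlated at 0.23, 0.05 and -0.09. For *ste11* and *mei2*, though, replicate 1 was the highest of its group in MM, at 1 h and at 4 h. A replicate block gave 3568 calls, with 3424 and 3254 for the differences in the libraries labelled *igo1*∆ and in *ppk18*∆ *cek1*∆. For those differences, quantile normalization gave 1457 more positive and 2008 more negative in the former, with 6 shared calls of opposite sign, and 1348 and 1945 in the latter, with 1. Of 157 genes tracked by name, 21 lost the call in at least 1 alternative and none reversed; *snoR69b* lost it in 12 and *igo1* in 8, and the cause was not tested. Counts of called genes within a list moved by over 1.5 times in 70 cases, each from a count of 9 or fewer. All precision rests on 3 libraries a group, with 14921656 reads on genes in the shallowest of the 27.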
